A study of Macaca mulatta with 4 samples.

Results

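T cells made up 3019 of the 6993 labelled blood cells in a single-cell RNA sequencing series on rhesus macaques, from a study of islets grown from human pluripotent stem cells and transplanted into the animals. They were the barcodes that the authors' deposited cell type tables call T cell, and no measured value entered that choice here. Each of the 4 groups was 1 library of peripheral blood mononuclear cells. The Pre-IS library was drawn with no immunosuppression given yet, and the Post-IS library was drawn once immunosuppression had been given but with no graft in place. The 4 wpt and 8 wpt libraries were drawn 4 and 8 weeks after transplantation. T cells numbered 841 of 1928 Pre-IS cells, 115 of 603 Post-IS cells, 889 of 1882 cells at 4 wpt and 1174 of 2580 cells at 8 wpt. The labels give neither the drugs nor the age of the animals, they leave out how many animals were bled for the 4 libraries, and they do not say whether drugs were still given after transplantation. No library came from an animal without a graft at the later times, so the graft, the drugs and the time cannot be told apart.

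T cells recognise antigens through a receptor built from a pair of variable chains, alpha with beta or gamma with delta, held in a complex with the CD3 proteins. Helper cells carry the co-receptor CD4 and most killer cells carry CD8, while naive and central memory cells circulate through lymph nodes with the help of CCR7 under factors such as LEF1 and TCF7. Effector cells give up that programme for granzymes, perforin and receptors such as CX3CR1, and they are the cells that attack foreign grafts, which is why drugs against rejection act on T cells.

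Since each group was a single library, groups were not tested against each other, and no difference could be set against a spread between replicates. Shares carry exact Clopper-Pearson 95% intervals, levels in CPM (UMIs of a gene per 1000000 UMIs summed over the T cells of a library, a UMI standing for 1 captured RNA molecule) carry exact Poisson 95% intervals, and ratios of CPM carry exact conditional binomial 95% intervals. All of these cover counting error only, and gene levels can vary more than that because the UMIs of a gene sit in few cells. Depth differed between libraries. The median T cell held 1526 UMIs in Pre-IS, 1257 in Post-IS, 3626 at 4 wpt and 1810 at 8 wpt, and the T cells together held 1349957, 143725, 3171276 and 2234323 UMIs in that order. Shares of cells with a UMI are therefore given after each cell was thinned to 1000 UMIs, which left out 88, 30, 35 and 52 shallower T cells, or are marked as unthinned, and an unthinned share is not comparable between libraries. Where a gene had 0 UMIs, 3 UMIs were taken as the floor, which put its level at up to 2.22 CPM in Pre-IS T cells, 20.9 CPM in Post-IS, 0.946 CPM at 4 wpt and 1.34 CPM at 8 wpt.

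Most cells under the label held its markers. The authors may have used these genes to name the cells, so their levels describe the label and do not test it. In unthinned cells, a UMI of CD3D, CD3E or CD3G, the invariant chains of the receptor complex, was present in 97.3% of Pre-IS T cells, 93.9% of Post-IS T cells, 98.5% at 4 wpt and 99.3% at 8 wpt. CD14+ monocytes, which do not make these chains, had one in 3.12%, 0.61%, 3.85% and 4.34% of cells in the same order. B cells, which lack them too, had one in 13.4%, 8.33% (1 of 12 cells), 22.8% and 16.9%, and NK cells in 31.5%, 22.2% (2 of 9 cells), 41.9% and 34.8%. CD3D alone stood at 1136, 988, 1065 and 1120 CPM in the T cells. IL7R, the interleukin 7 receptor of resting T cells, stood at 1117 CPM in Pre-IS, 1510 in Post-IS, 1102 at 4 wpt and 874 at 8 wpt. TRAT1, an adaptor of the receptor complex, was seen in 12.4%, 20%, 14.9% and 17.6% of thinned T cells. At least 2 UMIs of B cell or monocyte markers were found in 0.476%, 2.61% (3 of 115 cells), 2.25% and 1.28% of unthinned T cells. A UMI of the NK cell markers NCR1, KLRF1, TYROBP or FCER1G was found in 25.2%, 14.1%, 17.6% and 25.1% of thinned T cells. Of 12 NK cell genes in the files, 10, 8, 11 and 11 had UMIs in the T cells, while NCAM1 had 0 in every library. The 12 genes summed to 1271, 564, 802 and 1244 CPM. An NK marker UMI with no CD3 UMI was found in 9, 1, 2 and 2 unthinned T cells. Libraries shared at most 3 T cell barcodes.

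T cells were 43.6% (41.4 to 45.9) of labelled cells in Pre-IS and 19.1% (16.0 to 22.4) in Post-IS. After transplantation they were 47.2% (45.0 to 49.5) at 4 wpt and 45.5% (43.6 to 47.4) at 8 wpt. The T cell share was thus low in the Post-IS library alone, and the other 3 intervals overlapped. Fewer T cells and more cells of other classes cannot be told apart in a share.

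CD4 is the co-receptor of helper and regulatory T cells and CD8A and CD8B form the co-receptor of killer cells. T cells were sorted by their raw UMIs into cells with CD4 and no CD8A or CD8B (CD4-UMI cells) and cells with CD8A or CD8B and no CD4 (CD8-UMI cells). After thinning, CD4-UMI cells were 11.8% of T cells in Pre-IS (9.60 to 14.3), 11.8% in Post-IS (5.79 to 20.6), then 8.90% at 4 wpt (7.08 to 11.0) and 7.66% at 8 wpt (6.18 to 9.38). The 8 wpt share lay below that of Pre-IS, with intervals that did not overlap here but did when cells were left unthinned or were thinned to 700 or 1500 UMIs. The Post-IS interval covered all the other shares. CD8-UMI cells were 18.1%, 10.6%, 20.5% and 19.3% of T cells, so the Post-IS library was the lowest, on 9 of 85 cells. Unthinned, the shares were 15.6%, 10.4%, 25.8% and 13.5% for CD4-UMI cells and 23.8%, 12.2%, 30.5% and 26.7% for CD8-UMI cells, the highest of each being in the deepest library, 4 wpt. Between 70.1% and 77.6% of thinned T cells had neither, so these shares count cells with a captured UMI and are far below the true share of either lineage. As background, CD4 was seen in at most 0.342% of thinned B cells, but in 0.898% to 3.74% of CD14+ monocytes, a class known to make some CD4. CD8A was seen in 28.6% to 36.9% of thinned NK cells, and CD8B in at most 0.415%.

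Cells that showed both CD4 and CD8 were rare, at 4, 0, 2 and 2 unthinned T cells. As levels over all T cells, CD4 stood at 119, 83.5, 102 and 88.2 CPM, CD8A at 191, 76.5, 226 and 192 CPM, and CD8B at 94.1, 69.6, 94.0 and 94.4 CPM. CD8B was the steadier CD8 chain, near 94 CPM in Pre-IS, 4 wpt and 8 wpt, while CD8A was 2.5-fold lower in Post-IS than in Pre-IS (1.37 to 5.07).

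Cytotoxic T cells were counted as those with at least 2 UMIs over 8 genes of the killing granules: the granzymes GZMA, GZMB, GZMK and GZMM, the pore former PRF1, the membrane-lytic protein GNLY, the granule membrane protein NKG7 and the cystatin CST7. They were 41.3% of thinned T cells in Pre-IS (37.8 to 44.9), 18.8% in Post-IS (11.2 to 28.8), then 33.6% at 4 wpt (30.4 to 36.9) and 49.5% at 8 wpt (46.5 to 52.4). The 4 intervals follow one order, Post-IS lowest, then 4 wpt, Pre-IS and 8 wpt, and none overlaps its neighbour. Unthinned shares were 45.1% (41.7 to 48.5), 20.9%, 42.0% (38.7 to 45.3) and 52.5%, and there the intervals of Pre-IS and 4 wpt overlapped. The share in thinned B cells, which should lack these genes, was 1.71%, 0%, 0% and 5.23%, and in CD14+ monocytes it was 1.81%, 0%, 0.707% and 2.10%. NK cells reached 85.7% in Post-IS and 100% in the other libraries.

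**Figure D1:**
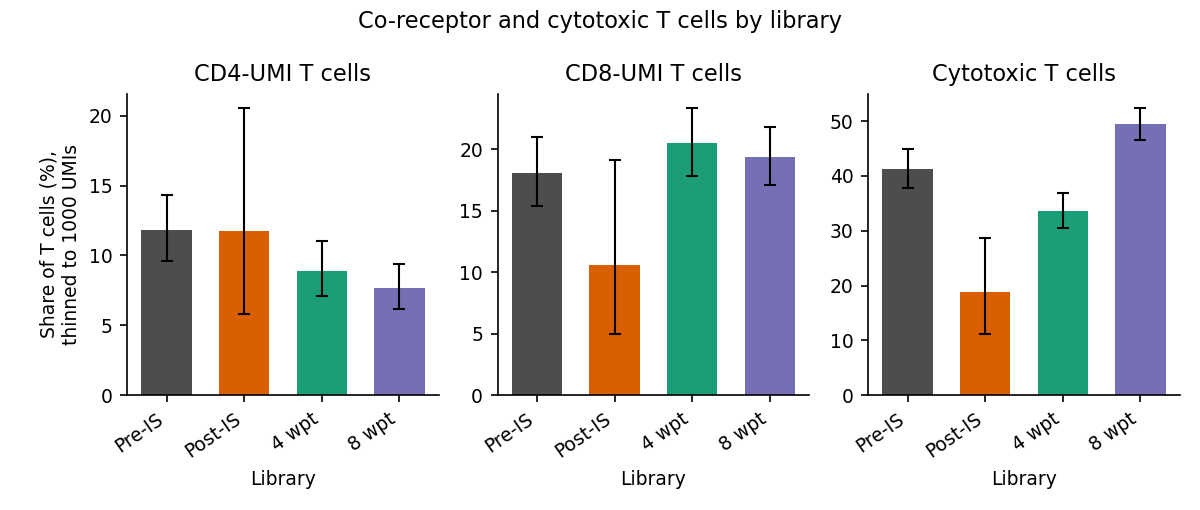
Share of T cells (percent, y axis) that were CD4-UMI, CD8-UMI or cytotoxic cells in each library (x axis) after thinning to 1000 UMIs per cell, with exact 95% Clopper-Pearson intervals as error bars. The cytotoxic share is lowest in Post-IS at 18.8% and highest at 8 wpt at 49.5%, while the Post-IS bars of both co-receptor classes have the widest intervals.

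The cytotoxic class is a range cut from a score and not a cell type, so the cells near the cut matter. Asking for 1 UMI gave 47.9% in Pre-IS, 21.2% in Post-IS, 41.3% at 4 wpt and 53.9% at 8 wpt, and asking for 3 UMIs gave 38.4%, 12.9%, 30.3% and 48.2%. T cells with 10 or more such UMIs were 26.4%, 9.41%, 19.0% and 33.2%. The order of the libraries was the same at every one of these minimums, but not at higher ones. With 25 or more such UMIs, Pre-IS stood at 5.31% and 8 wpt at 4.28%. A cytotoxic cell in turn held a median of 13, 8, 11 and 12 of these UMIs per 1000, so the libraries differed more in how many T cells were cytotoxic than in how much each such cell carried.

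**Figure D2:**
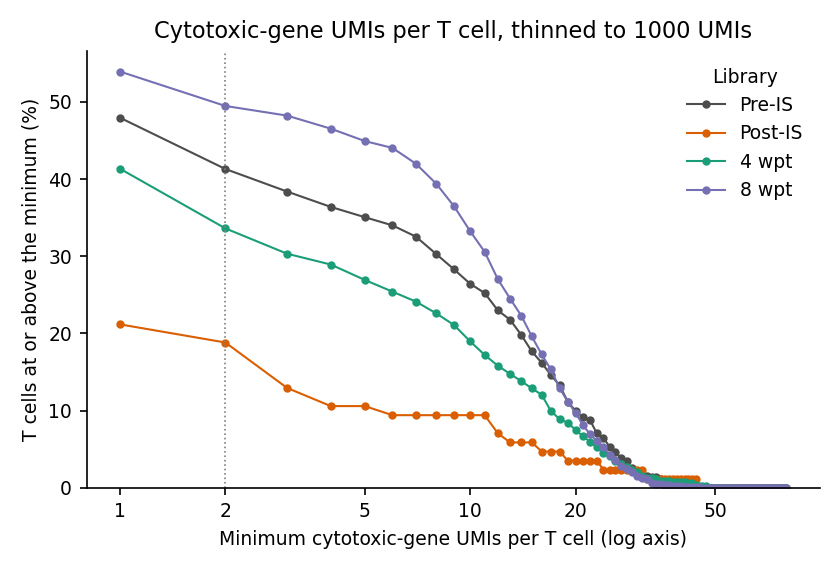
Share of T cells (percent, y axis) with at least the number of UMIs of the 8 cytotoxic genes given on the x axis (log axis), 1 line per library, cells thinned to 1000 UMIs; the dotted line marks the minimum of 2 UMIs used for the class. The 8 wpt line stands highest and the Post-IS line lowest at 1, 2, 3 and 10 UMIs, with Pre-IS above 4 wpt between them. The lines cross at higher minimums: at 18 UMIs Pre-IS stands at 13.3% and 8 wpt at 12.9%.

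NK cell markers sat mostly in the cytotoxic T cells. A UMI of an NK cell marker was found in 56.3% of cytotoxic T cells in Pre-IS, 31.2% in Post-IS (5 of 16 cells), 46.0% at 4 wpt and 46.7% at 8 wpt, against 3.39%, 10.1%, 3.17% and 4.06% of the other T cells. Between 93.8% and 95.9% of cytotoxic T cells had a CD3 UMI all the same. A further step, chosen after the data were seen, left out cells with an unthinned UMI of NCR1, KLRF1 or FCER1G. TYROBP was not used in it, and finding these cells was not matched for depth. The thinned cytotoxic share was then 32.6% (29.0 to 36.4), 18.3% (10.6 to 28.4), 25.9% (22.8 to 29.2) and 41.7%. The order of libraries was the same, but the 4 wpt interval overlapped those of Pre-IS and Post-IS. How many NK cells sit under the T cell label was not tested.

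Cytotoxic cells had fewer UMIs in total than other T cells, at a median of 1394 against 1718.5 in Pre-IS, 1200 against 1271 in Post-IS, 3589 against 3646.5 at 4 wpt and 1607 against 2126.5 at 8 wpt. By co-receptor, the thinned cytotoxic share of CD8-UMI cells was 71.3% in Pre-IS, 33.3% in Post-IS (3 of 9 cells), 67.4% at 4 wpt and 76.5% at 8 wpt. In CD4-UMI cells it was 21.3% (13.4 to 31.3), 0 of 10 cells, 11.8% (5.56 to 21.3) and 37.2% (27.0 to 48.3). Cytotoxic CD4-UMI cells were thus most frequent at 8 wpt, where the interval lay above that of 4 wpt and overlapped that of Pre-IS.

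GZMB, the granzyme of fully armed killer cells, and GZMK, the granzyme of earlier effector memory cells, split the cytotoxic cells further. GZMB with no GZMK was seen in 15.9% of thinned T cells in Pre-IS, 5.88% in Post-IS, 11.9% at 4 wpt and 24.6% at 8 wpt (22.1 to 27.2). GZMK with no GZMB was seen in 4.65%, 5.88%, 5.74% and 2.76% (1.88 to 3.90). The share with GZMB alone was highest at 8 wpt, and the share with GZMK alone was lowest there, with an interval that overlapped that of Pre-IS. CX3CR1, the fractalkine receptor of effector cells that patrol vessel walls, was seen in 24.8% of cytotoxic cells in Pre-IS, 0 of 16 in Post-IS, 17.1% at 4 wpt and 34.6% at 8 wpt. IL7R, which effector cells lose, was seen in 23.2%, 56.2% (9 of 16 cells), 41.8% and 25.6% of cytotoxic cells. KLRB1, a lectin receptor of innate-like and tissue-homing T cells, was seen in 13.5%, 12.5%, 23.3% and 14.2%. The cytotoxic cells of 4 wpt thus held IL7R and KLRB1 more often than those of Pre-IS and 8 wpt. They held CX3CR1 less often than those of 8 wpt, while the intervals of 4 wpt (12.9 to 21.9) and Pre-IS (20.1 to 29.9) overlapped.

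A UMI of CCR7, LEF1 or TCF7, genes of naive and central memory T cells grouped so after the data were seen, was found in 42.4% of thinned T cells in Pre-IS (38.8 to 46.0), 63.5% in Post-IS (52.4 to 73.7), then 46.4% at 4 wpt (43.0 to 49.8) and 33.9% at 8 wpt (31.1 to 36.7). The share was highest in Post-IS and lowest at 8 wpt, and the intervals of Pre-IS and 4 wpt overlapped. Among T cells that were not cytotoxic the shares lay much closer, at 65.2%, 71.0%, 63.5% and 62.1%, and all of their intervals overlapped. In cytotoxic cells it was 9.97%, 31.2% (5 of 16 cells), 12.5% and 5.05%.

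The 5′ libraries read into the variable (V) segments of the receptor chains, which a T cell fixes when it matures and hands to its daughters. A UMI of any of 20 beta chain V genes in the files was found in 35.2% of thinned Pre-IS T cells, 25.9% in Post-IS, 36.9% at 4 wpt and 38.9% at 8 wpt. The V genes below were chosen after their values were seen. Counts and shares of cells with them are unthinned unless marked as thinned, and so are not comparable between libraries. V genes form families with similar sequences, so reads may be shared between copies, and no receptor was sequenced in full.

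TRBV9, a beta chain V gene, was seen in 46 T cells in Pre-IS, 8 in Post-IS, 55 at 4 wpt and 141 at 8 wpt. After thinning that was 4.25% of T cells (2.92 to 5.95), 4.71% (1.30 to 11.6), 4.45% (3.17 to 6.06) and 10.4% (8.70 to 12.4). TRBV9 was more frequent at 8 wpt than in Pre-IS or at 4 wpt, with intervals that did not overlap. Among unthinned T cells with any TRBV gene it made up 13.2%, 22.2% (8 of 36 cells), 11.8% and 25.0%. TRBV9 cells that were cytotoxic numbered 25 of 46, 0 of 8, 22 of 55 and 117 of 141. Unthinned, cytotoxic cells were thus 83.0% (75.7 to 88.8) of the TRBV9 cells at 8 wpt. They were 40.0% (27.0 to 54.1) at 4 wpt and 54.3% (39.0 to 69.1) in Pre-IS. Outside T cells, TRBV9 was found at 8 wpt in 1 B cell, 3 CD14+ monocytes and 1 NK cell.

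A pair of alpha chain V genes went with TRBV9. TRAV20 was seen in 17 T cells in Pre-IS, 1 in Post-IS, 22 at 4 wpt and 72 at 8 wpt, or after thinning in 1.33%, 1.18%, 1.29% and 3.92% (2.86 to 5.23). TRAV9-2 was seen in 14, 0, 30 and 64 T cells, or after thinning in 1.59%, 0%, 1.76% and 4.01% (2.94 to 5.33). T cells with TRBV9 and either of these alpha V genes numbered 6, 0, 18 and 82. Unthinned, that was 0.713%, 0%, 2.02% and 6.98% (5.59 to 8.60) of all T cells. At 8 wpt, 82 of the 92 unthinned TRBV9 cells with any alpha V gene held TRAV20 or TRAV9-2. It was 18 of 33 at 4 wpt and 6 of 19 in Pre-IS. Among unthinned T cells with another beta V gene and no TRBV9, TRAV20 or TRAV9-2 was found in 2.97%, 0%, 2.68% and 2.12%. Both alpha V genes stood in the same cell in 2, 0, 5 and 34 T cells, 32 of those at 8 wpt with TRBV9 as well. A further beta V gene, TRBV7-2, was found in 2, 0, 5 and 35 of the TRBV9 cells.

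**Figure D3:**
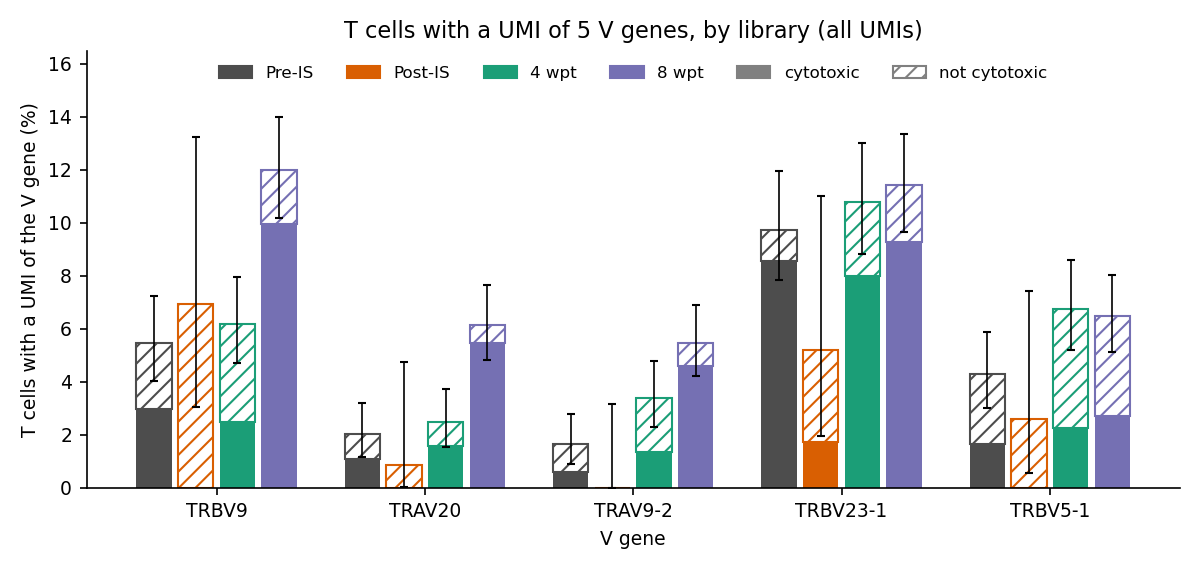
Share of T cells (percent, y axis) with a UMI of each of 5 receptor V genes (x axis) in each library, split into cytotoxic cells (filled) and cells that are not (hatched), with exact 95% Clopper-Pearson intervals of the total as error bars, all UMIs used. TRBV9 reaches 12% at 8 wpt with 117 of its 141 cells cytotoxic, while TRBV23-1 has much the same height in Pre-IS, 4 wpt and 8 wpt. The shares are unthinned and so not comparable between libraries.

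The 82 cells with TRBV9 and TRAV20 or TRAV9-2 at 8 wpt were nearly all effector cells. GZMB was found in 80 of them (97.6%), GNLY in 53, CX3CR1 in 48, GZMK in 35 and PRF1 in 34, while LEF1 was found in 3, CCR7 in 1 and the proliferation antigen MKI67 in 1. CD4 was found in 17 of the 82 cells (20.7%, 12.6 to 31.1), CD8A in 2 and CD8B in 0, which allows a share with CD8B of up to 4.40%. Unthinned as well, the 499 other cytotoxic T cells of 8 wpt with no TRBV9 had CD4 in 6.01% (4.09 to 8.47) and CD8A or CD8B in 47.7% (43.2 to 52.2). As levels, CD4 stood at 142 CPM and CD8A at 21.4 CPM in the 82 cells, against 42.7 and 405 CPM in the 499 cells. Their GZMB level was 5025 CPM and their median depth 1594 UMIs, close to the 1607 UMIs of all cytotoxic T cells at 8 wpt. In these 82 cells CD4 was thus read more often, and CD8 far less often, than in the other cytotoxic T cells of that library.

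In their shares, TRBV23-1 and TRBV5-1 showed no difference like that of TRBV9. They were among the more frequent of the beta V genes in the files. TRBV23-1 was found in 82, 6, 96 and 134 T cells, or after thinning in 9.16%, 4.71%, 6.44% and 8.73%. Cytotoxic cells were 72 of 82, 2 of 6, 71 of 96 and 109 of 134 of these. Unthinned, CD8A was found in 47.6% of the TRBV23-1 cells in Pre-IS, 69.8% at 4 wpt and 48.5% at 8 wpt, and CD4 in 4.88%, 8.33% and 2.24%. CD8B was found in 4.88%, 6.25% and 4.48% of them. TRBV23-1 cells were thus mostly cytotoxic at all 3 of these times, with CD8A read far more often than CD8B. NK cells showed CD8A with little CD8B as well, and the identity of the TRBV23-1 cells was not tested. TRBV5-1 was found in 3.85%, 2.35%, 4.10% and 5.17% of thinned T cells. Pairs with an alpha V gene were seen for TRBV5-1 too. In unthinned T cells TRAV38-1 was found with it in 1, 0, 5 and 13 cells. TRAV36DV7 was found with it in 2, 0, 2 and 7 cells, and TRAV29DV5 in 1, 0, 6 and 5 cells. Of the gamma chain V genes, TRGV9, which most human blood gamma delta T cells use, was found in 21, 3, 45 and 36 T cells, of which 21, 2, 45 and 36 were cytotoxic.

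Without the TRBV9 cells, an alternative chosen after the data were seen, the cytotoxic share was 41.2% in Pre-IS, 20.5% in Post-IS, 33.4% at 4 wpt and 45.0% at 8 wpt (41.9 to 48.2). Without them the 8 wpt interval overlapped that of Pre-IS (37.5 to 44.9). TRBV9 was chosen with its frequent and mostly cytotoxic cells at 8 wpt known, so a lower share there followed from the choice. TRBV23-1, with 109 cytotoxic cells at 8 wpt against 117 for TRBV9, was not left out in this way. The TRBV9 cells were found by unthinned UMIs, while the share is of thinned cells.

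Post-IS T cells against Pre-IS T cells address the start of immunosuppression ahead of any graft. A gene counted as measured where at least 5 UMIs were expected in each library at the pooled level, and as higher or lower where its ratio of CPM was at least 1.5-fold. Of 3596 measured genes 11.7% were higher and 19.8% were lower in Post-IS, and the median log2 ratio of all of them was -0.04. The 115 Post-IS T cells limited what could be measured. Markers of other cells were also higher among them: 9 B cell genes summed to 111 CPM in Post-IS and 35.6 CPM in Pre-IS, and 12 monocyte genes to 146 and 48.2 CPM, on 16 and 21 UMIs in Post-IS. Without the T cells that held at least 2 such marker UMIs, 412 genes were higher and 692 lower of 3450 measured, against 419 and 713 with them. The part of these markers in the gene lists was not tested. The cytotoxic effector genes lay far below this background, with 0 higher and 14 lower of 18 measured and a median log2 ratio of -1.41.

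The lower levels reached beyond the granzymes to the factors of effector cells. TBX21, the master factor of type 1 effector cells, had 0 UMIs in Post-IS and 62 UMIs in Pre-IS, and ZEB2, the factor of terminal effector cells, had 0 and 130 UMIs, at least 4.61-fold lower. KLRF1, a killer lectin receptor, stood at 6.96 CPM in Post-IS on 1 UMI, against 84.4 CPM in Pre-IS. Of the granule genes, GNLY was short of 1.5-fold, at 863 CPM in Post-IS and 1124 CPM in Pre-IS. Its 124 Post-IS UMIs sat in 14.8% of unthinned T cells.

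Genes of the receptor complex and its signalling had 1 higher and 6 lower of 20 measured in Post-IS and a median of -0.35, where 19.8% of all genes were lower, so most members were short of 1.5-fold. ZAP70, the kinase that binds the engaged receptor, stood at 90.5 CPM in Post-IS and 292 CPM in Pre-IS, 3.23-fold lower (1.87 to 6.11). UBASH3A, a brake on receptor signalling, stood at 13.9 and 83.0 CPM, and LAT, the adaptor that ZAP70 phosphorylates, at 341 and 627 CPM.

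Naive and central memory genes went the other way, with 6 higher and 0 lower of 14 measured and a median of 0.43. KLF2, a factor that keeps T cells quiescent, stood at 793 CPM in Post-IS and 465 CPM in Pre-IS. Among T cells that were not cytotoxic (91 in Post-IS and 462 in Pre-IS) the list had 2 higher and 1 lower of 14 and a median of 0.17, where 14.1% of all measured genes were higher and 13.5% lower. Its difference was thus smaller where the mix of cytotoxic and other cells was held fixed.

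Genes that glucocorticoids induce were higher in Post-IS, with 6 higher and 1 lower of 11 measured and a median of 0.60. Among T cells that were not cytotoxic the list had 4 higher and 1 lower of 11 and a median of 0.50, and in CD14+ monocytes it had 11 higher and 1 lower of 14 and a median of 0.85, where 18.0% of all genes were higher and 15.0% lower. DUSP1, a phosphatase that dampens MAP kinases, stood at 104 CPM in Post-IS and 58.5 CPM in Pre-IS, with a 1.78-fold ratio whose interval (0.953 to 3.12) held 1. BCL2, which blocks cell death, stood at 111 CPM in Post-IS and 32.6 CPM in Pre-IS, 3.42-fold higher (1.80 to 6.17), and BTG1, a brake on proliferation kept high in resting T cells, stood at 2087 and 1253 CPM, 1.67-fold higher (1.47 to 1.89). BCL2 and BTG1 were the only genes at least 1.5-fold higher of 8 measured on the apoptosis and p53 list, and none was lower. SFRP5 stood at 174 CPM in Post-IS and 56.3 CPM in Pre-IS, YWHAH at 397 and 153 CPM and USP14, a deubiquitinase of the proteasome, at 125 and 35.6 CPM.

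The comparison of 4 wpt with Pre-IS sets T cells after grafting against the untreated baseline. Of 9138 measured genes 12.5% were higher and 8.02% were lower at 4 wpt, with a median log2 ratio of 0.04. The 4 wpt T cells were read deeper than the Pre-IS cells, with a median of 3626 against 1526 UMIs per cell, and how depth bears on single genes was not tested. Type I interferon genes stood out, with 15 higher and 0 lower of 29 measured and a median of 0.68. Cytotoxic effector genes were lower, with 0 higher and 11 lower of 27 and a median of -0.31. The naive and central memory list stayed near the background, with 1 higher and 0 lower of 15 and a median of 0.04.

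IFI27, a mitochondrial protein made under interferon, stood at 117 CPM at 4 wpt and 24.4 CPM in Pre-IS, 4.79-fold higher (3.35 to 7.06). OAS2, which senses double-stranded RNA, stood at 60.5 and 29.6 CPM, 2.04-fold higher (1.45 to 2.95). ISG15, the ubiquitin-like tag of the response, rested on few UMIs, 54 at 4 wpt and 9 in Pre-IS. Further members of the list that were higher were IFI44, IFIT1, IFIT3, MX2, OAS3, IRF7, XAF1, HERC6, USP18, SAMD9 and SAMD9L.

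The interferon genes were higher in most T cell classes and outside T cells. Among T cells that were not cytotoxic 15 of 26 measured members were higher and 0 lower, with a median of 0.81, where 15.0% of all measured genes were higher and 8.63% lower. Among cytotoxic T cells it was 10 higher and 0 lower of 26 with a median of 0.42, where 14.2% of all genes were higher and 12% lower. CD4-UMI cells had 8 higher and 0 lower of 17 with a median of 0.57, where 19.5% of all genes were higher and 10.4% lower. CD8-UMI cells were nearer to their background, with 4 higher and 0 lower of 20 and a median of 0.30, where 15.9% of all genes were higher and 11.5% lower. NK cells had 8 higher and 0 lower of 21 (median 0.51), where 15.8% of all genes were higher and 10.2% lower. B cells, naive B cells included, had 7 higher and 1 lower of 22 (median 0.48), where 18.9% of all genes were higher and 12.2% lower. CD14+ monocytes had 11 higher and 0 lower of 22 (median 0.58), where 12.8% of all genes were higher and 13.7% lower. IFI27 stood at 83.7 CPM at 4 wpt and 22.4 CPM in Pre-IS in T cells that were not cytotoxic, and at 164 and 27.5 CPM in cytotoxic T cells. The higher interferon genes at 4 wpt were thus not a property of T cells alone.

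The 11 lower cytotoxic genes at 4 wpt were receptors and factors of effector cells (KLRD1, CX3CR1, S1PR5, ADGRG1, TBX21 and ZEB2), released chemokines and cytokines (CCL4L1, CCL3, XCL1 and IFNG) and the granule gene NKG7. S1PR5, the receptor that lets effector cells leave tissue, stood at 10.7 CPM at 4 wpt and 37.0 CPM in Pre-IS, 3.45-fold lower (2.19 to 5.51). ZEB2 stood at 44.8 and 96.3 CPM, 2.15-fold lower (1.68 to 2.75), and TBX21 at 22.4 and 45.9 CPM, 2.05-fold lower (1.44 to 2.93). CCL4L1, a chemokine that effector cells release, stood at 112 and 318 CPM, 2.83-fold lower (2.45 to 3.27). Among the granule genes, NKG7 stood at 670 CPM at 4 wpt and 1024 CPM in Pre-IS, 1.53-fold lower (1.43 to 1.64), and GZMB was just short of 1.5-fold, at 1265 and 1864 CPM (1.47-fold lower, 1.40 to 1.55). GZMK stood at 381 and 371 CPM, GZMA at 131 and 124 CPM and PRF1 at 243 and 263 CPM, all short of 1.5-fold. KLRF1, the receptor GPR141 and the phosphatase PPM1J were lower by 2.76-fold, 2.39-fold and 2.51-fold.

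Within the cytotoxic T cells, which the 8 granule genes chose, the effector list had 0 higher and 13 lower of 27 measured and a median of -0.35. The class was cut here from unthinned cells, with a median of 3589 UMIs at 4 wpt and 1394 in Pre-IS. The cytotoxic share was 42.0% unthinned and 33.6% thinned at 4 wpt, and 45.1% and 41.3% in Pre-IS. How a cut at unequal depth bears on the levels within the class was not tested. S1PR5 stood there at 25.8 CPM at 4 wpt and 91.8 CPM in Pre-IS, and CX3CR1 at 205 and 334 CPM, 1.63-fold lower (1.34 to 1.98). In NK cells the same list had 1 higher and 5 lower of 26 and a median of -0.09, where 15.8% of all genes were higher and 10.2% lower. B cells and CD14+ monocytes, which should lack most of these genes, had 7 and 6 lower of 11 measured members and 1 higher each, so effector gene UMIs in these classes were lower at 4 wpt as well. Of all measured genes 18.9% were higher and 12.2% lower in B cells. In CD14+ monocytes 12.8% were higher and 13.7% lower. The part of UMIs from outside the cell in the T cell values was not tested. The NK cell genes, in turn, had 0 higher and 6 lower of 9 in T cells, with a median of -0.66, and summed to 802 CPM at 4 wpt and 1271 CPM in Pre-IS. Their part in the lower effector list was not tested, beyond the class without NCR1, KLRF1 and FCER1G given above.

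The activation list had 3 higher and 1 lower of 14 measured at 4 wpt and a median of 0.23, beside the 12.5% of all genes that were higher and the 8.02% that were lower. Its higher members were CD38, MAMU-DRA and IL2RA, the last on 48 UMIs at 4 wpt and 13 in Pre-IS. CD38, an ectoenzyme of activated T cells, stood at 89.2 CPM at 4 wpt and 39.3 CPM in Pre-IS, 2.27-fold higher (1.69 to 3.11). MAMU-DRA, the macaque MHC class II alpha chain that activated T cells display, stood at 70.6 and 33.3 CPM, 2.12-fold higher (1.53 to 2.99). In these T cells the monocyte genes summed to 63.1 CPM at 4 wpt and 48.2 CPM in Pre-IS, and the B cell genes to 23.65 and 35.6 CPM. The part of UMIs from other cell types in MAMU-DRA was not tested. MKI67 stood at 20.5 CPM on 65 UMIs and 3.70 CPM on 5 UMIs, 5.53-fold higher (2.25 to 17.6), and was found in 1.76% (0.986 to 2.88) and 0.266% (0.0322 to 0.956) of thinned T cells. The authors' tables label proliferating NK and T cells apart, so these MKI67 UMIs come from cells outside that label. The proliferation list had 4 higher and 0 lower of 13 measured and a median of 0.26, the other 3 being TOP2A, CDK1 and CENPF. NK cells had 5 higher and 0 lower of 10 on that list, where 15.8% of all genes were higher and 10.2% lower. B cells had 7 higher and 0 lower of 13, where 18.9% of all genes were higher and 12.2% lower.

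Inhibitory receptors had 2 higher and 0 lower of 9. LAG3, which binds MHC class II, stood at 35.6 CPM at 4 wpt and 17.8 CPM in Pre-IS, 2-fold higher (1.28 to 3.26), and TIGIT, which competes for ligands with a co-stimulatory receptor, at 126 and 77.0 CPM, 1.63-fold higher (1.31 to 2.05). CD28, the main co-stimulatory receptor, stood at 59.0 and 37.0 CPM, 1.59-fold higher (1.16 to 2.22). CD40LG, the helper ligand for B cells, was the member of the activation list that was lower, at 89.2 and 137 CPM. None of the 15 measured targets of calcineurin, NFAT and mTOR drugs was past 1.5-fold.

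**Figure D4:**
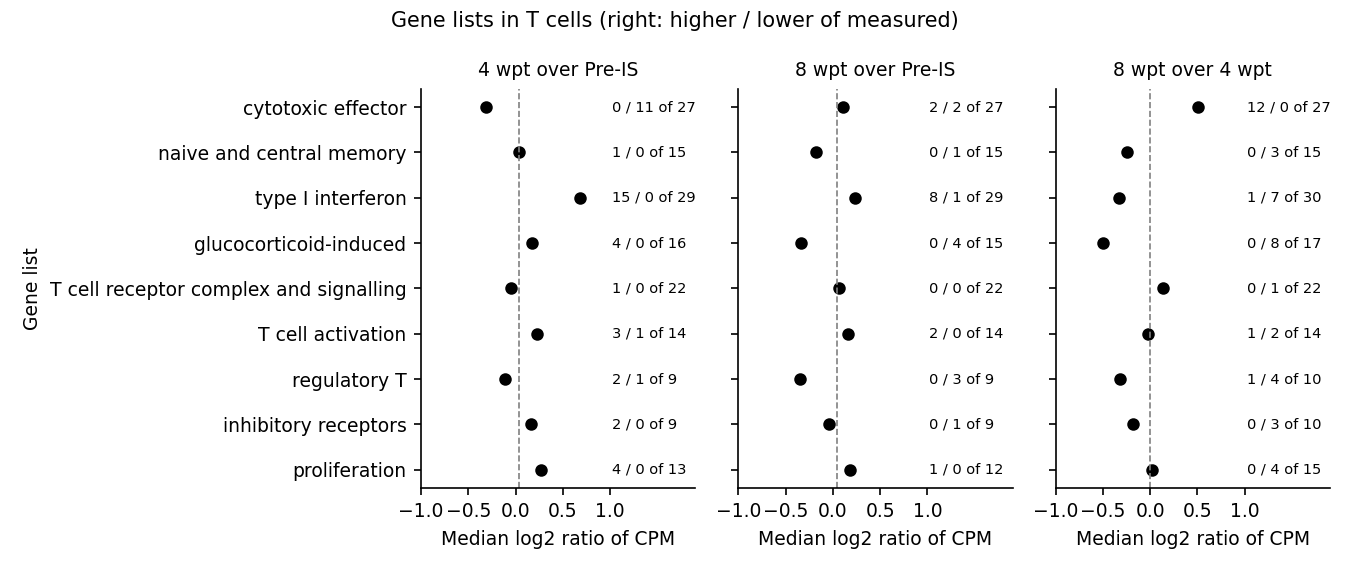
Median log2 ratio of CPM (x axis) of 9 gene lists (y axis) in T cells for 4 wpt over Pre-IS, 8 wpt over Pre-IS and 8 wpt over 4 wpt, with the counts of members at least 1.5-fold higher and lower of those measured at the right and the median of all measured genes as a dashed line. The type I interferon list stands at 0.68 at 4 wpt over Pre-IS and the cytotoxic effector list at 0.51 for 8 wpt over 4 wpt; the comparisons share libraries.

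Among single genes, H1-4, a linker histone, stood at 60.2 CPM at 4 wpt and 16.3 CPM in Pre-IS, 3.70-fold higher (2.37 to 6.04), RBIS, a ribosome assembly factor, at 214 and 79.3 CPM, and MAP3K5, a stress kinase, at 33.1 and 8.15 CPM. RBIS stood at 76.5 CPM in Post-IS and 109 CPM at 8 wpt, so its level followed the depth of the 4 libraries.

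T cells at 4 wpt against Post-IS showed the effector genes higher again. Of 3697 measured genes 20.2% were higher and 9.47% were lower at 4 wpt, or 746 against 350 genes, with a median log2 ratio of 0.08. With ribosomal, mitochondrial, hemoglobin and immunoglobulin genes left out of the total, 629 were higher and 457 lower. The cytotoxic effector list had 11 higher and 0 lower of 16 (median 0.98) and the naive and central memory list 1 higher and 5 lower of 14 (median -0.36). PRF1 stood at 243 CPM at 4 wpt and 83.5 CPM in Post-IS, 2.92-fold higher (1.66 to 5.67), and ZAP70 at 230 and 90.5 CPM, 2.54-fold higher (1.48 to 4.80). BCL2 was 2.35-fold lower (1.31 to 3.95) at 47.3 CPM at 4 wpt, against 111 CPM in Post-IS. SFRP5 was 4.18-fold lower (2.61 to 6.44) at 41.6 and 174 CPM. In these 4 genes the Pre-IS level, given above, lay nearer to that of 4 wpt than to that of Post-IS. All of them were already past 1.5-fold for Post-IS over Pre-IS, and both comparisons share the small Post-IS library. The nearness was thus partly fixed by the choice.

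From 4 wpt to 8 wpt no treatment change is named in the labels. Of 9716 measured genes 7.7% were higher and 8.96% were lower at 8 wpt, with a median log2 ratio of -0.0013. The cytotoxic effector list had 12 higher and 0 lower of 27 and a median of 0.51. Glucocorticoid-induced genes had 0 higher and 8 lower of 17 and a median of -0.50. Type I interferon genes had 1 higher and 7 lower of 30 and a median of -0.33.

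The 12 effector genes that were higher at 8 wpt were 6 receptors and factors (KLRD1, CX3CR1, S1PR5, ADGRG1, TBX21 and ZEB2), the granule genes GZMB and NKG7, the chemokines and cytokine CCL4L1, CCL3 and IFNG, and PLEK. KLRD1, the partner chain of the NKG2 receptors, stood at 485 CPM at 8 wpt and 214 CPM at 4 wpt, 2.27-fold higher (2.06 to 2.5). CX3CR1 stood at 194 and 85.1 CPM, 2.28-fold higher (1.95 to 2.66), S1PR5 at 37.6 and 10.7 CPM, 3.51-fold higher (2.33 to 5.39), and TBX21 at 53.3 and 22.4 CPM, 2.38-fold higher (1.76 to 3.24). GZMB stood at 2044 and 1265 CPM, 1.62-fold higher (1.55 to 1.69), and NKG7 at 1146 and 670 CPM, 1.71-fold higher (1.62 to 1.81). IFNG, the effector cytokine, was 2.66-fold higher (1.59 to 4.57) on 45 UMIs at 8 wpt and 24 UMIs at 4 wpt. GPR141 stood at 121 and 37.8 CPM, 3.21-fold higher (2.58 to 4.01), PPM1J was 2.48-fold higher (1.94 to 3.19) and KLRF1 2.71-fold higher (2.11 to 3.50). GZMK, GNLY and PRF1 were short of 1.5-fold.

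Part of this was present within classes. In cytotoxic T cells the effector list had 9 higher and 2 lower of 27 and a median of 0.26, where 10.8% of all genes were higher and 11.5% lower, and KLRD1 stood at 1026 CPM at 8 wpt and 513 CPM at 4 wpt. Among T cells that were not cytotoxic the list had 4 higher and 1 lower of 13 and a median of -0.03. Of all genes there, 7.55% were higher and 12.4% lower. The 8 granule genes that set this class are mostly on the list itself, so its low levels in these cells were partly fixed by the choice. In CD8-UMI cells the list had 11 higher and 2 lower of 27 with a median of 0.23, where 11.6% of all genes were higher and 12.3% lower. In CD4-UMI cells it had 13 higher and 1 lower of 16 with a median of 1.30, where 12.4% of all genes were higher and 14.2% lower. GZMB in CD4-UMI cells stood at 1124 CPM at 8 wpt and 315 CPM at 4 wpt, 3.57-fold higher (3.05 to 4.17), and KLRD1 there at 127 and 23.4 CPM, 5.43-fold higher (3.16 to 9.62). NK cells had 4 higher and 1 lower of 26 and a median of 0.04, where 9.94% of all genes were higher and 10.9% lower. B cells, which should lack most of these genes, had 8 higher and 0 lower of 12 and a median of 2.28, where 11.6% of all genes were higher, so effector gene UMIs in B cells were higher at 8 wpt as well. The part of UMIs from outside the cell in the T cell values was not tested. The CD4-UMI, CD8-UMI, cytotoxic and other T cell classes of 4 wpt were cut from deeper cells, and these values were not thinned. How that cut bears on the ratios within classes was not tested. Without the TRBV9 cells the list over all T cells had 10 higher and 1 lower of 27, with a median of 0.42. The NK cell genes had 3 higher and 1 lower of 10 in T cells and a median of 0.40, and summed to 1244 CPM at 8 wpt and 802 CPM at 4 wpt.

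The glucocorticoid-induced genes were lower at 8 wpt in both cytotoxic and other T cells. FKBP5, a chaperone of the glucocorticoid receptor and a standard readout of its activity, stood at 81.5 CPM at 8 wpt and 193 CPM at 4 wpt, 2.37-fold lower (2 to 2.81). KLF9, a factor that the receptor induces directly, stood at 9.85 and 31.2 CPM, 3.17-fold lower (1.98 to 5.29). DDIT4, an inhibitor of mTOR, stood at 63.1 and 119 CPM, 1.89-fold lower (1.55 to 2.31), DUSP1 at 35.4 and 63.4 CPM, 1.79-fold lower (1.38 to 2.36), and CXCR4, a homing receptor that glucocorticoids raise, at 66.7 and 121 CPM, 1.81-fold lower (1.49 to 2.20). TSC22D3, known as GILZ and a further target, was short of 1.5-fold at 412 and 584 CPM.

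Cytotoxic T cells had 0 higher and 8 lower of 15 members with a median of -0.70, against the 11.5% of all genes that were lower in these cells. Other T cells had 0 higher and 6 lower of 14 with a median of -0.48, where 7.55% of all genes were higher and 12.4% lower. NK cells had 1 higher and 5 lower of 13 (median -0.35), where 9.94% of all genes were higher and 10.9% lower. B cells had 2 higher and 4 lower of 12 (median -0.29), where 11.6% of all genes were higher and 17.2% lower. CD14+ monocytes had 2 higher and 6 lower of 18 (median -0.34), where 12.4% of all genes were higher and 10.5% lower. FKBP5 in T cells that were not cytotoxic stood at 72.4 CPM at 8 wpt and 214 CPM at 4 wpt, 2.95-fold lower (2.33 to 3.77), and in NK cells at 51.0 and 147 CPM, 2.88-fold lower (2.13 to 3.94). The labels name no glucocorticoid, and the difference in depth between these libraries moves with these genes as well.

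**Figure D5:**
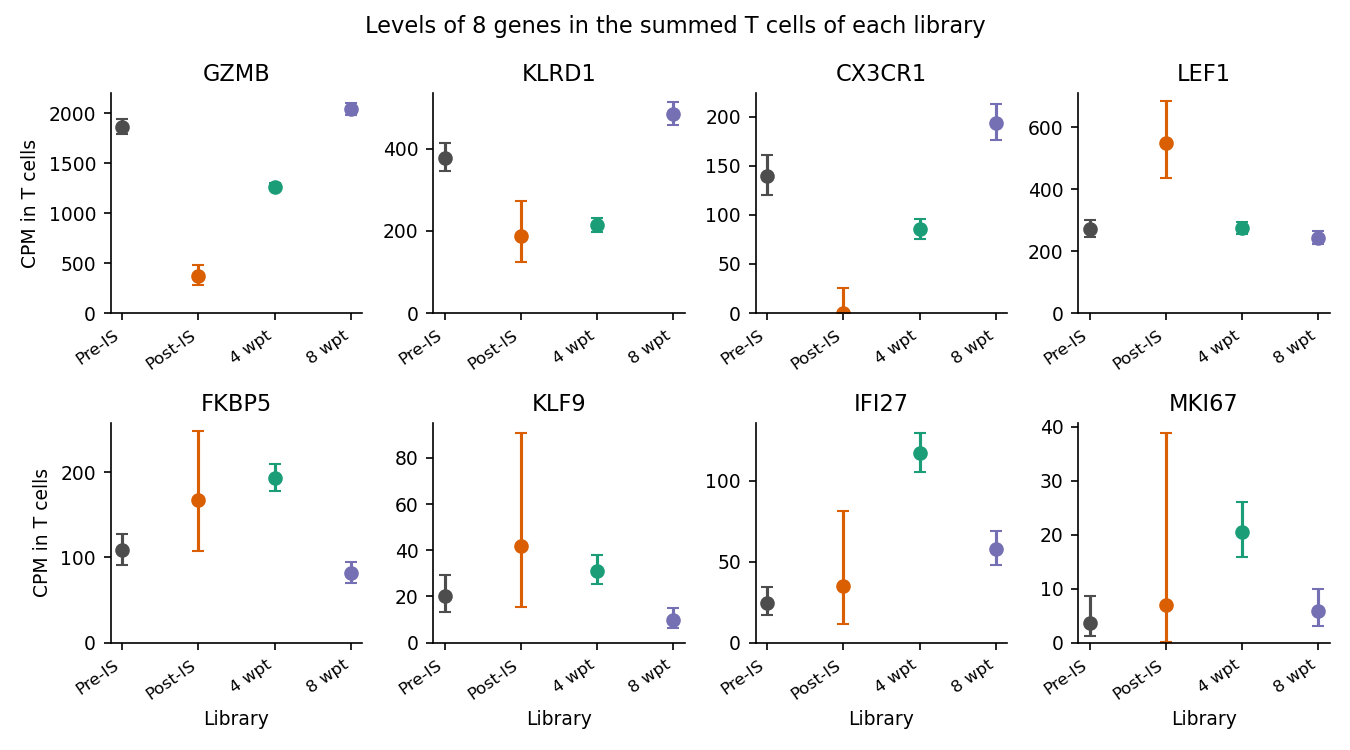
Level in CPM (y axis, from 0) of 8 genes in the summed T cells of each library (x axis), with exact 95% Poisson intervals. GZMB, KLRD1 and CX3CR1 are highest at 8 wpt and lowest in Post-IS, LEF1 is highest in Post-IS at 550 CPM, and FKBP5, IFI27 and MKI67 are highest at 4 wpt.

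The activation list as a whole had 1 higher and 2 lower of 14 at 8 wpt and a median of -0.03, near the background, and inhibitory receptors had 0 higher and 3 lower of 10. MKI67 stood at 5.82 CPM at 8 wpt and 20.5 CPM at 4 wpt, 3.52-fold lower (1.92 to 6.97), and CD38 at 47.4 and 89.2 CPM, 1.88-fold lower (1.5 to 2.37). TIGIT stood at 74.7 and 126 CPM, 1.68-fold lower (1.40 to 2.03), and LAG3 at 23.3 and 35.6 CPM, 1.53-fold lower (1.09 to 2.17). MAMU-DRA was not lower, at 80.1 and 70.6 CPM, and CD40LG was 1.71-fold higher (1.45 to 2) at 152 and 89.2 CPM. CCR2, the monocyte chemoattractant receptor carried by memory T cells, stood at 13.9 and 35.3 CPM, 2.55-fold lower (1.70 to 3.92), and GATA3, the factor of type 2 helper cells, at 66.7 and 104 CPM, 1.57-fold lower (1.29 to 1.91). Regulatory T cell genes had 1 higher and 4 lower of 10 with a median of -0.32, but their defining factor FOXP3 rested on 8 UMIs at 8 wpt and 18 at 4 wpt. Naive and central memory genes had 0 higher and 3 lower of 15 with a median of -0.24.

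The comparison of 8 wpt with Pre-IS sets the latest time against the untreated baseline. Of 9044 measured genes 9.08% were higher and 6.47% were lower at 8 wpt than in Pre-IS, with a median log2 ratio of 0.04. Cytotoxic effector genes had 2 higher and 2 lower of 27 (median 0.11), and genes of the receptor complex and its signalling 0 higher and 0 lower of 22 (median 0.06). Naive and central memory genes had 0 higher and 1 lower of 15 (median -0.18). Type I interferon genes were still above the background, with 8 higher and 1 lower of 29 and a median of 0.23. IFI27 stood at 57.7 CPM at 8 wpt and 24.4 CPM in Pre-IS, 2.36-fold higher (1.60 to 3.58).

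Glucocorticoid-induced genes lay below Pre-IS at 8 wpt, with 0 higher and 4 lower of 15 and a median of -0.34. KLF9 stood at 9.85 CPM at 8 wpt and 20 CPM in Pre-IS, 2.03-fold lower (1.11 to 3.74), and DUSP1 at 35.4 and 58.5 CPM, 1.66-fold lower (1.20 to 2.29). FKBP5 was short of 1.5-fold at 81.5 and 108 CPM. In cytotoxic T cells it stood at 91.8 and 75.2 CPM and in other T cells at 72.4 and 130 CPM, 1.80-fold lower (1.34 to 2.42), so the lower level was seen in T cells that were not cytotoxic, while the interval in cytotoxic T cells (0.838 to 1.80) held 1.

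CCL4L1 stayed lower at 8 wpt, at 183 CPM against 318 CPM in Pre-IS, 1.74-fold lower (1.52 to 2). CPT1A, which admits long-chain fatty acids to mitochondria, stood at 46.1 and 14.1 CPM, 3.28-fold higher (1.99 to 5.66), HSPH1, a heat shock chaperone, at 64.9 and 26.7 CPM, 2.43-fold higher (1.68 to 3.61), and SAMD3 at 46.1 and 17.8 CPM, 2.59-fold higher (1.65 to 4.23). MAMU-DRA stood at 80.1 and 33.3 CPM, 2.40-fold higher (1.72 to 3.41). In the same T cells the monocyte genes summed to 85.5 CPM at 8 wpt and 48.2 CPM in Pre-IS, and the B cell genes to 31.8 and 35.6 CPM. The part of UMIs from other cell types in MAMU-DRA was not tested. TACO1, a mitochondrial translation activator, stood at 13.4 and 37.0 CPM, 2.76-fold lower (1.72 to 4.49), and MRTFA, a partner of serum response factor, at 19.7 and 48.1 CPM, 2.44-fold lower (1.64 to 3.67). IMPDH2, the enzyme that mycophenolate inhibits, stood at 75.6 and 114 CPM, 1.51-fold lower (1.20 to 1.89), and was 1 of 2 lower members of the 15 measured drug target genes, with 1 higher.

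T cells of 8 wpt were also set against those of Post-IS. Of 3681 measured genes 21.4% were higher and 9.78% were lower at 8 wpt, with a median log2 ratio of 0.10. The cytotoxic effector list had 15 higher and 0 lower of 19 (median 1.63), and naive and central memory genes 1 higher and 7 lower of 14 (median -0.68). GZMB stood at 2044 CPM at 8 wpt and 369 CPM in Post-IS, 5.54-fold higher (4.23 to 7.41), and TCF7, the factor of stem-like memory cells, at 121 and 244 CPM, 2.01-fold lower (1.37 to 2.86). CXCR4 was 2.71-fold lower (1.72 to 4.13) and DUSP1 2.95-fold lower (1.58 to 5.17) at 8 wpt.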

How the data were processed

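Single-cell 5′ RNA libraries (10x Genomics, V1 chemistry, per the labels' protocols) were made from macaque blood mononuclear cells, 1 library per group. The genome build Mmul_10 and the tools Seurat 3.2.3 and Cell Ranger 3.1.0 are named per the submitters' processing notes. The authors deposited raw UMI counts (15354 gene rows per library) and, in a second table, a label for each cell; how cells and genes were chosen is not given in the sources used here. A reference table gave symbols to 404 of the 2559 rows that carry only an Ensembl identifier, and 2155 stayed unnamed. The cell labels were taken as deposited.

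UMI counts of T cells were summed per library and divided by the class total (CPM), which ties every gene's level to the others. Ratios carry an offset of 0.5 UMIs for log2 values. Intervals were exact at 95%. For shares, each cell was thinned at random to 1000 UMIs. No doublet caller was run; T cells with at least 2 UMIs of B cell or monocyte markers were left out in an alternative instead. A class needed at least 50 cells in both libraries to be compared. Per comparison up to 6 higher and 6 lower genes could be named, ranked by the interval bound nearest to 1, with that bound beyond 1.5-fold and UMIs in at least 5% of T cells of 1 library. Receptor V, D, J and C genes of T and B cells, genes of hemoglobin, ribosomes and mitochondria, genes with no symbol, and genes under 10% of the level in their highest label, were passed over. Members of 24 gene lists could be named as well. Members, lists and rules were chosen with earlier results of these data known. Some list members are not reported here by name. GZMH, meant for the cytotoxic class, had no row under that symbol. Alternatives were other scalings (TMM of edgeR 4.0.16, median of ratios of DESeq2 1.42.0), filters, depths, cell weights and sets of cells. Ratios and calls were tested on simulated counts. Python 3.11.15, numpy 2.4.6, scipy 1.17.1, pandas 2.3.3 and R 4.3.3 were used.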

Additional observations from a re-analysis of the deposited data

How the results depend on the processing

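No paired analysis was possible because each group was 1 library, its replicate number is only a name, and no test was made; leaving out a replicate was not possible either. Of 80 alternative values of shares 51 lay inside the 95% interval of the value reported, of 936 list medians 933 lay within 1.5-fold of it, and of 54 gene counts 37 lay within 1.5 times of it. No list median beyond 1.5-fold changed sign, while 85 of the 936 alternatives did so for smaller ones. Among them was the cytotoxic effector list for 8 wpt over 4 wpt, at -0.03 without the cytotoxic cells. That class was set by genes mostly on the same list. With no filter on low counts the balance of calls turned round for Post-IS over Pre-IS, with 4176 higher and 2227 lower, for 4 wpt over Post-IS, with 2235 and 5057, and for 8 wpt over Post-IS, with 2272 and 4621. Counting cells of at least 1000 UMIs gave a T cell share of 24.2% in Post-IS. For CD4-UMI cells, unthinned cells gave 15.6% in Pre-IS, 25.8% at 4 wpt and 13.5% at 8 wpt. Thinning to 700 UMIs gave 7.92%, 6.52% and 6.06% for these libraries, and 1500 UMIs gave 12.2% at 4 wpt and 10.7% at 8 wpt. For CD8-UMI cells, unthinned cells gave 23.8% in Pre-IS, 30.5% at 4 wpt and 26.7% at 8 wpt. Thinning to 700 UMIs gave 16.2% at both 4 wpt and 8 wpt, and 1500 UMIs gave 24.3% at 4 wpt and 22.6% at 8 wpt. For cytotoxic cells, unthinned cells gave 45.1%, 42.0% and 52.5% in Pre-IS, 4 wpt and 8 wpt, a minimum of 1 UMI gave 47.9%, 41.3% and 53.9%, and leaving out cells with NCR1, KLRF1 or FCER1G gave 32.6%, 25.9% and 41.7%. A minimum of 3 UMIs gave 30.3% at 4 wpt, and leaving out TRBV9 cells gave 45.0% at 8 wpt. Thinning to 1500 UMIs gave 30.4% in Pre-IS and 42.4% at 8 wpt, and there 4 wpt, at 36.5%, stood above Pre-IS, against the order reported; this setting keeps only the deeper cells, and cytotoxic cells were the shallower ones. Genes past the threshold numbered 1132, 1874, 1406, 1096, 1148 and 1619 for Post-IS over Pre-IS, 4 wpt over Pre-IS, 8 wpt over Pre-IS, 4 wpt over Post-IS, 8 wpt over Post-IS and 8 wpt over 4 wpt. With no filter they were 6403, 4152, 4226, 7292, 6893 and 4150, and at 2-fold 428, 520, 362, 397, 424 and 480. At least 20 UMIs over both libraries gave 2696, 3744 and 3357 for Post-IS over Pre-IS, 4 wpt over Post-IS and 8 wpt over Post-IS. Thinned T cells gave 726 for Post-IS over Pre-IS and 689 for 4 wpt over Post-IS. The small Post-IS library limits depth most: levels under 20.9 CPM were below its floor.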
